A study of Arabidopsis thaliana with 6 samples.

Results

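Pollen grains are enclosed by the exine, a patterned outer wall of sporopollenin, and 9 Arabidopsis genes that shape it, build or dissolve the callose around the young microspores, or separate the members of the tetrad were compared gene by gene between wild type and transgenic flower buds. The 9 genes are DEX1, NEF1, CALS5, LAP3, KNS4, A6, QRT1, QRT2 and QRT3, grouped by name for their known roles, and all 9 are among the 27629 entries of the count files. After meiosis the microspores are held together in a callose wall, and the scaffold of the exine, the primexine, is laid down on their surface inside it. The tapetum, the cell layer that lines the anther locule, then secretes enzymes that dissolve the callose, while the pectin of the wall that joined the meiotic products is broken down so that the grains come apart. Loss of a gene of this group typically gives a thin, collapsed or wrongly patterned exine, or pollen that is shed as joined tetrads.

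RNA was measured in young buds, at anther stages 6 to 9, of 3 wild type (WT) and 3 transgenic samples, all in the Col background (Col-0 in the study's methods) and grown at 23 °C with 16 h of light and 8 h of dark. The transgenic plants, labelled BnA9::BnMAGL8.1 and called BnA9::BnaC.MAGL8.a in the study, carry a rapeseed monoacylglycerol lipase gene behind the BnA9 promoter, which drives expression in the tapetum. The methods speak of transgenic lines, but how many plants each sample holds and which line each transgenic sample came from were not found in the sources used here, so the p-values measure the spread among these 6 samples. Whole buds were used, so fewer cells of a type and less RNA per cell cannot be told apart.

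The libraries held 13519945 to 14729927 counts, and 18642 genes passed the filter on low counts and were tested. The transgene had 0 counts in all 3 WT libraries and 5552, 853 and 9594 in transgenic replicates 1, 2 and 3. Levels are CPM, the counts of a gene per 1000000 counts of its library, after scaling of the libraries by the trimmed mean of M values (TMM), and differences are log2 fold changes of transgenic against WT with their standard errors (SE) from edgeR's quasi-likelihood test, with Benjamini-Hochberg adjustment over all genes tested. The tapetum was well represented: its 10 marker genes all had counts in every library, and their summed level was 8292, 9701 and 8057 CPM in WT and 7839, 4307 and 5764 CPM in the transgenic libraries. The 10 transgenic-to-WT log2 differences of these markers were all below 0, with a median of -0.70, and none passed the test. That median was -0.34 when WT replicate 3 was left out, -0.43 without transgenic replicate 2, and -1.08 without transgenic replicate 1 instead. By real-time PCR on buds of the same stages, however, the study reports the markers CYP703A2, PKSA and TKPR1 as higher in the transgenic plants. It reports ACOS5 and MS2 as lower by that method. The study also describes these genes as regulated by the tapetum factors AMS and MS188, so the list is not independent of those factors. Meiocyte markers summed to 16.2 to 19.5 CPM in WT and 14.9 to 19.4 CPM in the transgenic libraries, with 8 of the 11 at 0 in at least 1 library, and carpel and ovule markers to 104 to 135 CPM and 109 to 135 CPM. Late pollen markers summed to 29.5 CPM in WT replicate 1 and to between 5.45 and 13.4 CPM in the other 5 libraries, with PRK2 and ANX2 at 0 throughout, and the 3 endothecium markers to between 3.29 and 5.48 CPM.

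KNS4 and QRT3 were the pair for which every transgenic library lay below every WT library. KNS4, which the transgenic buds held at 0.408 times the WT level, and QRT3, at 0.544 times, had the smallest p-values of the 9 genes, but neither passed edgeR's adjusted threshold of 0.05. A6 and CALS5 were lower on average with overlapping groups, QRT1, LAP3 and NEF1 had smaller differences, DEX1 was the steadiest of the 9, and QRT2 was removed by the filter on low counts. Of the 9 genes, 8 were tested and 0 were called at an adjusted p under 0.05 by edgeR, against a background of 0.0161% of all genes tested. DESeq2 called 1, KNS4, and limma's voom 0, and at an unadjusted p under 0.05 by edgeR there were 2, beside 6.84% of all genes tested. At an unadjusted p under 0.01, 2 were lower in the transgenic buds, where 0.848% of all genes tested were. The transgenic libraries lay all below the WT libraries for 2 of the 8, beside 6.62% of all genes tested, and all above for 0, beside 5.57%. The log2 difference was below 0 for 7 of the 8, as it was for 52.1% of all genes tested, and the median was -0.47, beside -0.01 over all genes. Over the same 8 genes, the median was -0.31 when WT replicate 3 was left out. It was -0.19 without WT replicate 1, -0.31 without transgenic replicate 2, and -0.28 with every gene with a count kept. These were each over 9 genes, because QRT2 then entered with its low counts, so they do not compare the same genes as -0.47. No gene of the 8 lists of related, regulatory and clock genes given beside the 9 was called by edgeR, DESeq2 or voom. At an unadjusted p under 0.05 by edgeR, 2 of 10 callose synthases, 1 of 19 galactosyltransferases and 3 of 6 tapetum factors tested were lower in the transgenic buds. The share of all genes tested that were lower at this threshold was 4.26%. The other lists held 0 such genes in either direction.

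**Figure D1:**
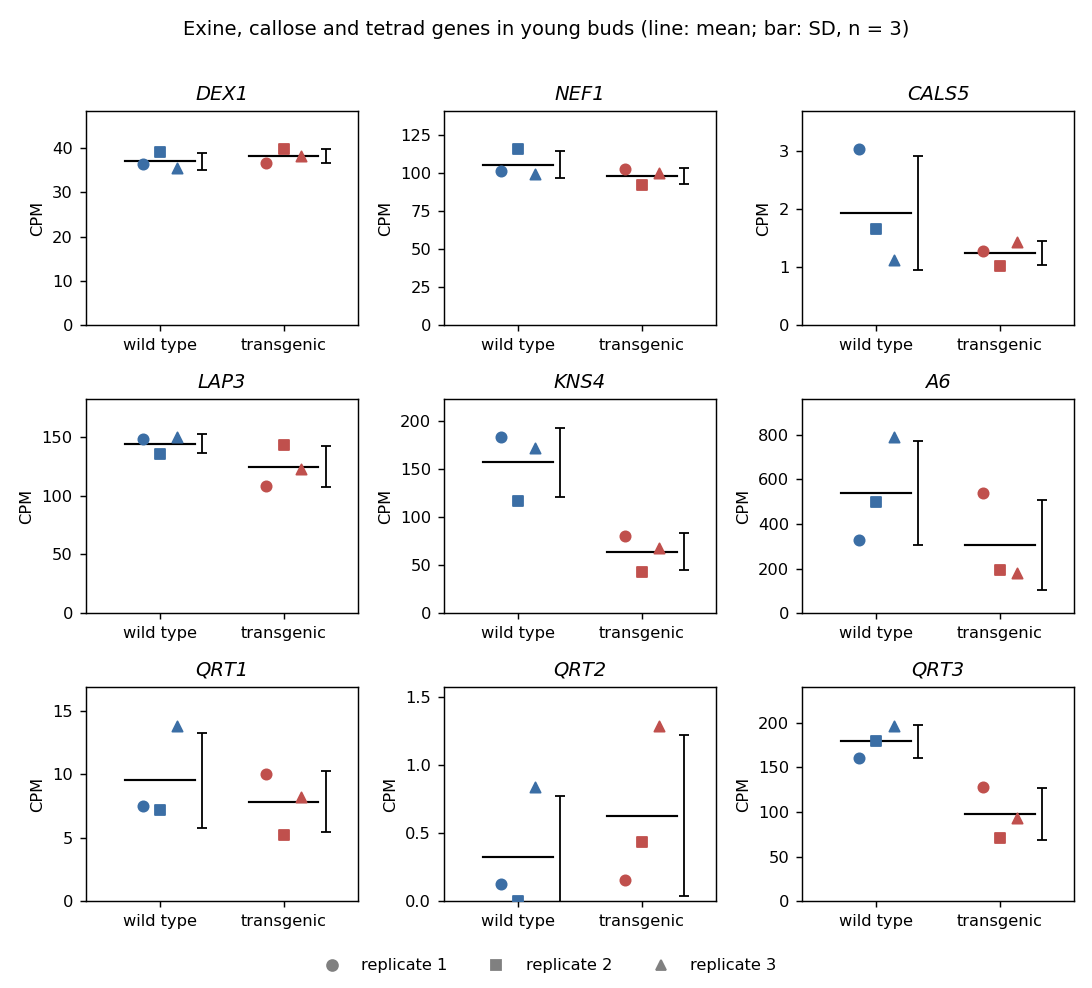
Level of each of the 9 genes in CPM after TMM scaling (vertical axes, each from 0) in the 3 wild type (blue) and 3 transgenic (red) libraries. Points are libraries, shaped by replicate number, horizontal lines are group means and bars are SD (n = 3). The groups separate for KNS4 and QRT3 only, and transgenic replicate 2 is the lowest library for both.

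DEX1 and NEF1 act early, when the primexine is laid down. DEX1 (AT3G09090, chr3:2782698-2787930, minus strand of TAIR10.1) encodes a membrane protein without which sporopollenin is deposited at random on the microspore surface. Its level was 36.5, 39.1 and 35.4 CPM in WT and 36.6, 39.7 and 38.1 CPM in the transgenic libraries. The groups overlapped, and the highest library exceeded the lowest by 1.12-fold. WT averaged 37.0 ± 1.88 CPM (SD, n = 3) and the transgenic libraries 38.2 ± 1.54 CPM (SD, n = 3), and the log2 difference of DEX1 was 0.05 (SE 0.13, edgeR adjusted p = 0.961). Genes on the opposite strand overlap 200 and 43 exon bases of DEX1.

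NEF1 (AT5G13390, chr5:4292704-4296725, plus strand) encodes a plastid membrane protein that is needed for primexine formation and lipid supply to the exine. Its level was 101, 115 and 99.1 CPM in WT and 102, 91.6 and 99.6 CPM in the transgenic libraries. WT replicate 2 was the highest and transgenic replicate 2 the lowest, and the other 4 libraries lay together. NEF1 differed by -0.10 on the log2 scale (SE 0.13, edgeR adjusted p = 0.888). Per kb of exon, the WT level was 28.9 CPM for NEF1 and 11.2 CPM for DEX1, higher than in 80.1% and 60.2% of the genes tested.

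CALS5 (AT2G13680, chr2:5694381-5706442, plus strand) encodes the main callose synthase of the wall around the meiocytes and tetrads. It was close to the limit of these libraries, with 47, 22 and 16 counts in WT and 16, 14 and 20 in the transgenic libraries. These are 3.03, 1.65 and 1.12 CPM in WT and 1.28, 1.02 and 1.43 CPM in the transgenic libraries. WT replicate 1 alone stood above the rest, and the other 5 libraries overlapped. For CALS5 the log2 difference was -0.65 (SE 0.48, edgeR adjusted p = 0.795), and without WT replicate 1 it was -0.15. WT replicate 1 was also the library with the highest sum of late pollen markers, whose part in the CALS5 value was not tested. Per kb of exon, CALS5 stood at 0.309 CPM in WT, a level that 0.8% of the genes tested fell below, and ranked 11 of the 12 callose synthases.

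The other callose synthases are known from plasmodesmata, cell plates, sieve plates, wound callose and, for CALS11 and CALS12, the walls that separate the microspores of the tetrad. Of the 11, 10 were tested, 0 were called, and the log2 difference was below 0 for all 10, beside 52.1% of all genes tested, with a median of -0.29. Their genotypes did not overlap for 4 of the 10, beside 6.62% of all genes tested with every transgenic library below WT: CALS1, CALS2, CALS3 and CALS7, the last of these named after its values were seen. CALS11 and CALS12, named for their tetrad role, had overlapping groups and log2 differences of -0.11 (SE 0.26) and -0.06 (SE 0.15). CALS3, a synthase of plasmodesmatal callose, was the most abundant per kb of exon at 18.9 CPM in WT and 13.8 CPM in the transgenic buds. Its libraries held 122, 103 and 136 CPM in WT and 68.7, 99.0 and 95.2 CPM in the transgenic buds. Transgenic replicate 1 was the lowest of these, and the top transgenic value fell just short of the lowest WT value. CALS3 differed by -0.45 on the log2 scale (SE 0.18, edgeR adjusted p = 0.72), and CALS1, a synthase linked to the cell plate, by -0.46 (SE 0.18). CALS9, which is needed for normal microspore mitosis, had a log2 difference of -0.29 (SE 0.14) with overlapping groups. Under the 15 alternative settings, 8 to 10 of the 10 synthases stayed below 0, and 8 of them did so without transgenic replicate 1.

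LAP3 (AT3G59530, chr3:21993253-21995331, plus strand) encodes a protein resembling strictosidine synthase, and its loss gives a thin exine with a faulty pattern and an altered content of flavonoids and lipids. Its level was 148, 135 and 149 CPM in WT and 108, 143 and 123 CPM in the transgenic libraries. Transgenic replicate 1 was the lowest and transgenic replicate 2 lay among the WT values. LAP3 differed by -0.21 on the log2 scale (SE 0.14, edgeR adjusted p = 0.778). For LAP3 the order of the transgenic libraries was thus the reverse of that for KNS4 and QRT3, in which replicate 1 was the highest and replicate 2 the lowest.

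All 14 other strictosidine synthase-like genes were tested, and 10 were above 0 and 4 below 0, with a median log2 difference of 0.19 and 0 called. Without transgenic replicate 1 they split 7 to 7 with a median of 0.03, and the median was 0.08 without WT replicate 1 and 0.30 without WT replicate 3. SSL2 (-0.37, SE 0.19) and AT5G22020 (-0.34, SE 0.24) were on the lower side, and SSL5 (0.41, SE 0.19) and SSL6 (1.04, SE 0.49) on the higher side. SSL6 rested mainly on transgenic replicate 1, at 14.9 CPM where the other 5 libraries held between 2.77 and 5.68 CPM. The biochemical role of most of these relatives is not known.

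KNS4, also called UPEX1 (AT1G33430, chr1:12124237-12126481, minus strand), encodes a galactosyltransferase of the GT31 family that helps to make arabinogalactan, and its loss gives thin, collapsed exine and altered callose timing. Its counts were 2835, 1547 and 2454 in WT and 1007, 594 and 948 in the transgenic libraries, or 183, 116 and 171 CPM and 80.7, 43.3 and 67.8 CPM. The lowest WT library, replicate 2, stood well above the highest transgenic library, replicate 1. WT averaged 157 ± 35.6 CPM (SD, n = 3) and the transgenic libraries 63.9 ± 19.0 CPM (SD, n = 3). The log2 difference of KNS4 was -1.29 (SE 0.25, edgeR adjusted p = 0.353). By its p-value, KNS4 ranked 14 among the 9714 genes with a log2 difference below 0.

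The KNS4 difference kept its direction under all 15 alternative settings, between -1.50 and -1.08 on the log2 scale. With DESeq2 it was called, at an adjusted p of 0.00202, in a test that called 0.302% of 20518 genes, and over the 15 alternatives the adjusted p lay between 0.00202 and 1.0. Without WT replicate 1, the highest library, the log2 difference was -1.17. KNS4 and QRT3 stand in the study's own list of lowered pollen wall genes, which was chosen on these same samples, so that list is no independent evidence of their direction. All 1545 exon bases of KNS4 lie within a noncoding gene, AT1G33415, on the opposite strand. That gene is not an entry of the counts, and whether strand was used in counting is not given, so reads of these genes cannot be told apart.

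All 19 other GT31 galactosyltransferases were tested, and 9 lay below 0 and 10 above, with a median log2 difference of 0.02 and 0 called. With 1 library left out the median lay between -0.04 and 0.07, and it fell below 0 without WT replicate 2, transgenic replicate 1 or transgenic replicate 2. KNS4 was the most abundant member of the family in WT by far, at 101 CPM per kb of exon, where the next, DD46, had 18.2 CPM. DD46 had 42.6, 26.8 and 13.8 CPM in WT and 15.6, 10.6 and 13.7 CPM in the transgenic libraries. Its groups overlapped, and the log2 difference was -1.06 (SE 0.36, edgeR adjusted p = 0.72). AT2G32430 (-1.02, SE 0.51), GALT31A (-0.73, SE 0.41) and HPGT1 (-0.63, SE 0.32), the last an enzyme that adds the first galactose to arabinogalactan proteins, also lay below 0 without passing the test.

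**Figure D2:**
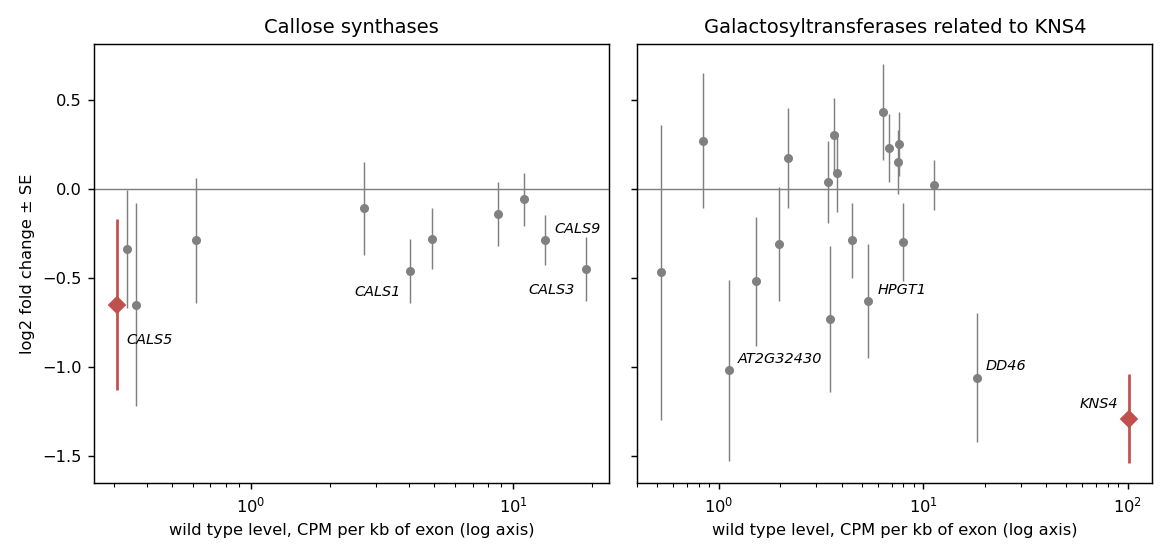
Log2 fold change of transgenic against wild type with SE bars (vertical axis) against the wild type level in CPM per kb of exon (horizontal axis, log scale) for the tested callose synthases (left) and GT31 galactosyltransferases (right). Red diamonds mark CALS5 and KNS4 and grey points their relatives. CALS5 sits at 0.309 CPM per kb, the lowest level of its family tested, and KNS4 at 101, the highest of its own.

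A6 (AT4G14080, chr4:8118537-8120358, minus strand) encodes a glycoside hydrolase related to beta-1,3-glucanases, made in the tapetum and thought to take part in dissolving the callose. It was the most abundant of the 9 genes, at 324 CPM per kb of exon in WT, above 98.0% of the genes tested. Its level was 330, 500 and 788 CPM in WT and 538, 195 and 183 CPM in the transgenic libraries. Transgenic replicate 1 lay above 2 of the 3 WT libraries, while transgenic replicates 2 and 3 lay below all of them. WT averaged 539 ± 232 CPM (SD, n = 3) and the transgenic libraries 305 ± 202 CPM (SD, n = 3). For A6 the log2 difference was -0.82 (SE 0.45, edgeR adjusted p = 0.745). Without transgenic replicate 1 it was -1.52 (SE 0.36, edgeR adjusted p = 0.703), past the unadjusted threshold of 0.01 but not the adjusted one, and without WT replicate 3 it was -0.44. Over the 15 alternatives the adjusted p of A6 lay between 0.581 and 1.0.

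Of the 12 other beta-1,3-glucanases, 6 were tested, 5 of them lay below 0, the median log2 difference was -0.18 and 0 were called. Without WT replicate 2 they split 3 to 3 with a median of -0.06, and the median was -0.08 without transgenic replicate 2 and -0.27 without WT replicate 1. AT3G23770, a relative of A6 in the same hydrolase family, followed A6 from library to library, with 105, 159 and 257 CPM in WT and 152, 56.6 and 41.9 CPM in the transgenic libraries. The ratio of A6 to AT3G23770 was 3.15, 3.14 and 3.07 in the WT libraries and 3.54, 3.44 and 4.37 in the transgenic libraries, while A6 itself varied 4.31-fold over the 6 libraries. AT3G23770 had a log2 difference of -1.06 (SE 0.48, edgeR adjusted p = 0.722). PDBG2, a glucanase of plasmodesmata, had a log2 difference of -0.23 (SE 0.13). It was the 1 of the 6 with every transgenic library below the WT libraries, beside 6.62% of all genes tested. BG1, BG3, BG5 and AT1G33220 had 0 counts in every library, and 3 counts, the limit that a count of 0 allows, are 0.193 to 0.240 CPM here, a limit that covers counting error only.

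The 250 bases before the start of A6 and of AT3G23770 are shown because the levels of this pair were so alike from library to library. The windows, read from the TAIR10.1 genome of RefSeq on the strand of each gene, are chr4:8120359-8120608 (minus strand) for A6 and chr3:8565244-8565493 (plus strand) for AT3G23770. Capitals mark the longest stretch that both windows share, of 18 bases, which was looked for after the values were seen.
A6: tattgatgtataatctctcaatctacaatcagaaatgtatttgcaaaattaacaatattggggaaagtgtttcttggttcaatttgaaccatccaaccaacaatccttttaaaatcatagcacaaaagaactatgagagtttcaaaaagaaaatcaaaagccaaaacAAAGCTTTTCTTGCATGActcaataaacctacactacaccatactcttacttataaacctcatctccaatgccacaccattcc
AT3G23770: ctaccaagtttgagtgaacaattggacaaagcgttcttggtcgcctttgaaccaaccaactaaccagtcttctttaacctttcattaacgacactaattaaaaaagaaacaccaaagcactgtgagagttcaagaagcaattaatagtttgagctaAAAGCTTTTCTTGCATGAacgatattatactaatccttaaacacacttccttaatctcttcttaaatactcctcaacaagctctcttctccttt
The stretch AAAGCTTTTCTTGCATGA begins 83 bases before A6 and 94 bases before AT3G23770. On the strand of the gene it was found in 2 of the 27419 windows of this length, these same windows, and on the other strand in 0. Because the stretch was picked from this pair, its presence in both was fixed in advance, and the count is no test. The stretch is a description of the letters, not a site. The windows of ATA1 and NIP7;1, the genes whose levels were most like that of A6, did not hold it.

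QRT1, QRT2 and QRT3 act on the pectin of the tetrad wall, and grains of the mutants are shed as joined tetrads. QRT1 (AT5G55590, chr5:22519654-22521858, plus strand) encodes a pectin methylesterase, which prepares pectin for cleavage. Its level was 7.48, 7.21 and 13.8 CPM in WT and 10.02, 5.24 and 8.23 CPM in the transgenic libraries. WT replicate 3 was the highest and transgenic replicate 2 the lowest, and the rest of the libraries overlapped. QRT1 differed by -0.28 on the log2 scale (SE 0.34, edgeR adjusted p = 0.886), and it became 0.09 when WT replicate 3 was left out.

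QRT2 (AT3G07970, chr3:2540913-2543613, plus strand) encodes a polygalacturonase that also acts in floral organ abscission and in anther opening, later than the stages sampled. It had 2, 0 and 12 counts in WT and 2, 6 and 18 in the transgenic libraries and did not pass the filter, so it was not part of the main test. Replicate 3 was the highest of both genotypes. Its CPM values were 0.129, 0 and 0.838 in WT and 0.160, 0.437 and 1.29 in the transgenic libraries, and WT replicates 1 and 2 and transgenic replicate 1 lie below the value of 3 counts. With every gene with a count kept, the log2 difference was 0.97 (SE 1.04, edgeR adjusted p = 0.832), and over the 6 alternatives that fitted QRT2 the adjusted p was 0.832 or higher. A difference was not detectable at this depth.

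QRT3 (AT4G20050, chr4:10849760-10854065, minus strand) encodes a polygalacturonase that the tapetum secretes to degrade the pectin around the young microspores, and its promoter is known to be bound by AMS, a basic helix-loop-helix factor of the tapetum. Its counts were 2491, 2393 and 2817 in WT and 1601, 968 and 1302 in the transgenic libraries, or 161, 180 and 197 CPM and 128, 70.5 and 93.2 CPM. The WT libraries lay close together, transgenic replicate 1 came nearest to them and transgenic replicate 2 was the lowest. WT averaged 179 ± 18.1 CPM (SD, n = 3) and the transgenic libraries 97.3 ± 29.1 CPM (SD, n = 3). The log2 difference of QRT3 was -0.88 (SE 0.21, edgeR adjusted p = 0.582), and by its p-value the gene ranked 36 among the 9714 genes below 0. Over the 15 alternatives it lay between -1.13 and -0.69 and was not called, with an adjusted p between 0.0757, from DESeq2, and 1.0.

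Other pectin enzymes had differences of both signs. Of 12 other polygalacturonases and pectin methylesterases, 6 were tested, with 3 below 0 and 3 above, a median log2 difference of -0.10 and 0 called. Without WT replicate 1 this median was 0.23, again over 6 genes. It was -0.60 without WT replicate 2, -0.24 without WT replicate 3, and -0.49 and -0.53 without transgenic replicates 1 and 2. In each of these latter fits 8 genes passed the filter, so the set of genes changed along with the libraries. PGX3, a polygalacturonase of expanding cells, had a log2 difference of -0.67 (SE 0.30) and PME3 one of 0.43 (SE 0.35). PGA4, a polygalacturonase of pollen, had 19.9, 0.451 and 0 CPM in WT and 0, 1.02 and 1.57 CPM in the transgenic libraries, so that its log2 difference of -2.95 (SE 1.53) rested on WT replicate 1. ADPG2, which separates floral organs and opens anthers together with QRT2, had 0 counts in every library.

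**Figure D3:**
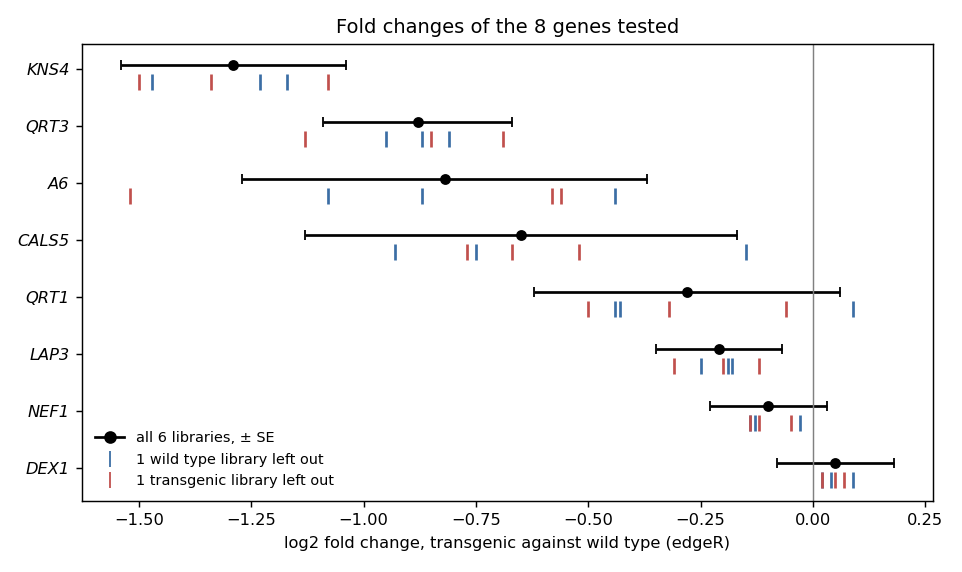
Log2 fold change of transgenic against wild type (horizontal axis) for the 8 genes tested (vertical axis). Black points with bars are the estimates from all 6 libraries with their SE, and ticks are the estimates with 1 wild type (blue) or 1 transgenic (red) library left out. KNS4 stays between -1.50 and -1.08 and QRT3 between -1.13 and -0.69, A6 spreads from -1.52 to -0.44, and QRT1 crosses 0, reaching 0.09.

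The windows before KNS4 and QRT3 are shown because these were the genes whose genotypes did not overlap. They are chr1:12126482-12126731 (minus strand) for KNS4 and chr4:10854066-10854315 (minus strand) for QRT3, from TAIR10.1. Capitals mark each CANNTG, the core letters that basic helix-loop-helix factors such as AMS recognise. The pattern, though not each match to it, reads the same on both strands.
KNS4: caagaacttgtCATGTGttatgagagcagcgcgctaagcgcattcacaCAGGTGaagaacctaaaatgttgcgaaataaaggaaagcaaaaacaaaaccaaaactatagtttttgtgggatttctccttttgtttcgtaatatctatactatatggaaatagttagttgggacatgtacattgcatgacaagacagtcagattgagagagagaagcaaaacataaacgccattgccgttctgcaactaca
QRT3: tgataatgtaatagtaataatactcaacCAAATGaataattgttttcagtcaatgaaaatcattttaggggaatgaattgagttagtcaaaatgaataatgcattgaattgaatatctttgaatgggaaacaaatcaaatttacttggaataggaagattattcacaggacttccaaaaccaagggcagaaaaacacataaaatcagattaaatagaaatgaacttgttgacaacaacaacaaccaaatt
KNS4 held 2 matches, 239 and 202 bases before its start, and QRT3 held 1, at 222 bases. Of the other genes, LAP3 held 3, DEX1 and CALS5 2 each, NEF1 and QRT1 1 each, and A6 and QRT2 none. Such matches are common: 55.3% of 27419 windows of this length held at least 1, 20.4% held 2 or more and 5.7% held 3 or more. The form CACGTG, a special case of CANNTG, was found in 6.5% of windows and, of the 9 genes, in that of CALS5. A match in these letters is not evidence of binding, and the KNS4 window lies within AT1G33415.

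Levels were also compared with those of the factors that control the tapetum. Of 8 such factors, 6 were tested, all 6 lay below 0, the median log2 difference was -0.69 and 0 were called. It was -0.46, with 5 of the 6 below 0, without transgenic replicate 2. AMS had 72.1, 92.6 and 88.0 CPM in WT and 58.3, 38.5 and 51.1 CPM in the transgenic libraries. As for QRT3, its transgenic libraries all lay below WT and ran from replicate 1, the highest, to replicate 2, the lowest. The log2 difference of AMS was -0.77 (SE 0.18, edgeR adjusted p = 0.565). The related factors bHLH091 (-1.74, SE 0.44) and bHLH089 (-0.60, SE 0.19) had groups without overlap too, and bHLH010 stood at -0.30 (SE 0.23). Every transgenic library thus lay below WT for 3 of the 6, beside 6.62% of all genes tested. DYT1, which acts before AMS in the tapetum, had 0 counts in all 6 libraries. By real-time PCR on buds of the same stages, however, the study reports DYT1 at a similar level in both genotypes. It also reports AMS, MS188, bHLH010, bHLH089 and bHLH091 as lower in the transgenic plants by that method.

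The other genes of exine pattern and pollen apertures, 12 in number, gave 11 that were tested, 8 below 0, a median log2 difference of -0.20 and 0 called. Their median was 0.01 without WT replicate 1, -0.07 without WT replicate 2 and -0.09 without transgenic replicate 1. TEK, a factor needed for nexine, the inner layer of the exine, had 14.7, 9.01 and 39.2 CPM in WT and 6.81, 3.06 and 19.1 CPM in the transgenic libraries, a log2 difference of -1.11 (SE 0.67). RPG1, a sugar transporter required for the primexine, had 267, 117 and 56.5 CPM in WT and 104, 50.6 and 104 CPM in the transgenic libraries, a log2 difference of -0.77 (SE 0.50). Both genes varied as much within WT as between genotypes. The aperture gene INP2 (-1.26, SE 0.95) was, like RPG1, led by WT replicate 1, at 5.67 CPM.

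**Figure D4:**
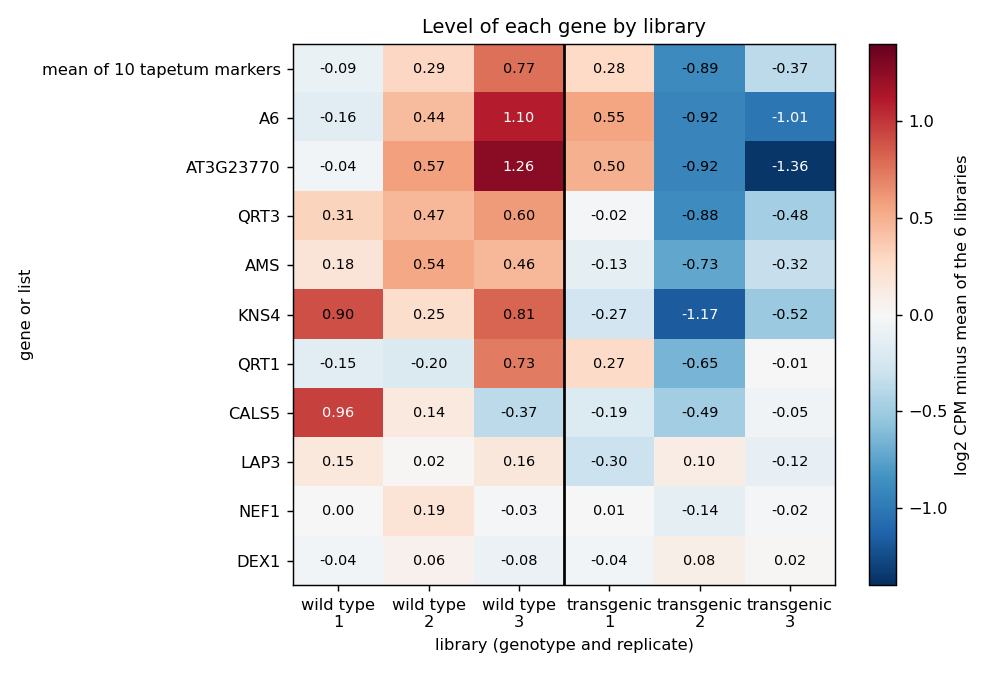
Log2 CPM of 8 of the 9 genes, AMS, AT3G23770 and the mean of 10 tapetum markers (rows) in the 6 libraries (columns), each row centred on its mean over the libraries. Red is above and blue below that mean, and the number in each cell is the value. A6 and AT3G23770 run from 1.10 and 1.26 in wild type replicate 3 to -1.01 and -1.36 in transgenic replicate 3, whereas DEX1 stays between -0.08 and 0.08.

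The 9 genes fell into steady and variable ones. Over the 6 libraries, the coefficient of variation of the CPM was 4.44% for DEX1, 7.59% for NEF1 and 12.0% for LAP3. It was 34.2% for QRT1, 36.0% for QRT3, 46.6% for CALS5, 51.6% for KNS4 and 55.1% for A6. For QRT2, at its low counts, it was 105%. These values pool both genotypes and so include any difference between them, as for KNS4 and QRT3. The variable genes followed the tapetum markers to different degrees. On the log2 scale, each centred on its own mean, the markers stood at -0.09, 0.29 and 0.77 in WT and at 0.28, -0.89 and -0.37 in the transgenic libraries. QRT3 stood at 0.31, 0.47 and 0.60 in WT and at -0.02, -0.88 and -0.48 in the transgenic libraries. Transgenic replicate 2 was thus the lowest library for QRT3, KNS4 and the marker mean, and it was also the transgenic library with the fewest transgene counts. The other transgenic libraries did not keep this order. Replicate 3, with 9594 transgene counts, lay below replicate 1, with 5552, for QRT3, KNS4 and the marker mean. A link with the transgene counts was not tested.

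Relative to the marker mean, KNS4 was at 0.99, -0.04 and 0.04 in WT and at -0.55, -0.28 and -0.16 in the transgenic libraries, on the same log2 scale. All 3 transgenic libraries were still below all 3 WT libraries, by a smaller gap than in the CPM. The gap lay between -0.04 in WT replicate 2 and -0.16 in transgenic replicate 3. The share of all genes without overlap on this scale was not computed, so the separation is a description only. QRT3 relative to the markers was at 0.39, 0.18 and -0.17 in WT and at -0.30, 0.01 and -0.11 in the transgenic libraries, and its groups then overlapped. That overlap rests on WT replicate 3, the highest library by the marker mean, at 0.77. By the summed marker CPM it was the lowest WT library, at 8057. Levels relative to the sum were not compared, so the overlap may depend on the marker summary used. The part of the tapetum markers in the values of KNS4, QRT3 and A6 was not tested. The ratio of KNS4 to QRT3 in CPM was 1.14, 0.646 and 0.871 in WT and 0.629, 0.614 and 0.728 in the transgenic libraries, so that only WT replicates 1 and 3 stood above the transgenic range.

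The hour at which buds were taken is not given, and clock genes differed between libraries. LHY, a morning gene of the clock, had 1.03, 0.150 and 32.4 CPM in WT and 2.48, 6.48 and 0.143 CPM in the transgenic libraries. WT replicate 3, the library with the most LHY, was also the highest for A6, QRT1, QRT3, LAP3 and TEK, for LAP3 by only 149 against 148 CPM. It was the lowest of all libraries for DEX1 and the lowest WT library for NEF1, CALS5 and RPG1. For KNS4 it lay below WT replicate 1. The part of the clock in these values was not tested.

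Genes whose levels were most like those of KNS4, A6 and QRT3 were found among 13610 genes by the root mean square (RMS) difference in centred log2 CPM over the 6 libraries. These 3 were the genes of the 9 with a mean of at least 5 CPM and an SD of at least 0.5 on that scale. Closest to KNS4 was AT1G23560, with an RMS difference of 0.116, and next came the amino acid transporter gene UMAMIT29 at 0.190 and the syntaxin gene SYP21 at 0.201. Closest to A6 were ATA1, a dehydrogenase gene of the tapetum, at 0.118, NIP7;1, a boric acid channel gene of the tapetum, at 0.157, and AT3G23770 at 0.172. Closest to QRT3 were the sugar transporter gene STP14 at 0.111, AMS at 0.130 and the NAD synthesis gene QS at 0.148. AMS was thus the second of 13610 genes in likeness to QRT3, a description over 6 libraries in which both genes were read from the same RNA.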

How the data were processed

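The deposited values are raw counts of reads per gene, 1 table per library. Per the labels and the study's methods, the authors mapped the reads with HISAT2 to the TAIR10 genome with the transgene sequence added and counted them with featureCounts. Tool versions, the use of strand and the treatment of multiply mapped reads were not given in the sources used here. In each library 75.5% to 78.0% of counts from 1 to 20 were even, and whether the mates of a pair were counted as 1 or as 2 is not stated. If as 2, the low counts of CALS5 and QRT2 and the limit of 3 counts stand for fewer fragments than their number.

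Counts were filtered (edgeR's filter by genotype, minimum count 10, minimum total 15), scaled by TMM (factors 0.924 to 1.058) and tested on genotype with edgeR 4.0.16 (R 4.3.3) by quasi-likelihood, with Benjamini-Hochberg adjustment over 18642 genes. Calls needed an adjusted p under 0.05. The unadjusted threshold of 0.01 is that of the study, which used DESeq2. DESeq2 1.42.0 and voom with quality weights (limma 3.58.1) were alternatives, as were other scaling, filters, a block, a covariate and leaving out each library. Libraries of 1 genotype differed by more than sampling noise (chi-square per degree of freedom 14.7 to 52.8), which does not show that they are independent. Each was treated as a replicate because the study's methods report 3 biological replicates per genotype. The fit was tested on simulated data.

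Named are the 9 genes and, of each list, up to 4 with the smallest p, AMS included. Likeness used the 3 nearest genes. The members and lists were chosen with earlier results of these data known. TAIR10.1 gene models of RefSeq matched 27420 of 27629 entries and gave exon lengths and sequences. No member shared a stretch of 50 bases with another counted gene.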

Additional observations from a re-analysis of the deposited data

How the results depend on the processing

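The members lower at an unadjusted p under 0.01 were KNS4 and QRT3 in all 15 alternatives, joined by A6 without transgenic replicate 1, and no gene of the other lists was called in any of the 15. Over all genes, edgeR called 3 genes, against 62 with DESeq2, 1 with robust empirical Bayes, 0 with voom (1736 genes at an unadjusted p under 0.05, where edgeR had 1275) and 0 to 5 with 1 library left out. Of the 9 genes, 1 was called with DESeq2, KNS4, and 0 with every other setting. The number whose genotypes did not overlap was 2, both lower, beside 6.62% of all genes tested all below and 5.57% all above. With 1 library left out it was 2 to 4, but groups separate more easily with fewer libraries. The share over all genes was not computed for those settings, so these counts are no result about the members. The number reached 4 without WT replicate 2, when LAP3 lay all below and DEX1 all above, the latter by 36.62 against 36.47 CPM. QRT1 ran from -0.50 to 0.09 on the log2 scale with 1 library left out, turning positive without WT replicate 3, and the cause was not tested.

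Same-numbered libraries did not deviate together (correlations of -0.08, -0.10 and -0.35, beside -0.18 to 0.25 for unlike numbers). No pairing by number was seen, but so few libraries cannot exclude it. With the replicate number as a block, 0 genes were called, KNS4 stood at -1.31 (adjusted p = 0.412) and QRT3 at -0.92 (adjusted p = 0.887) on the log2 scale by edgeR. The alternative with the mean of 11 clock genes as a covariate joins morning and evening genes in 1 mean and so did not test the hour. Counts of 14 to 47 limit CALS5, and 0 to 18 limit QRT2.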
